A study of Ovis aries with 2 samples.

Results

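Among 17884 barcodes of sheep peripheral blood mononuclear cells (PBMCs), 72 carried at least 4 unique molecular identifiers (UMIs, the tags that count captured RNA molecules) of GNG11, MYL9, TUBB1 and MPIG6B together, and are called marker-positive below. The choice rests on these measured values, so the levels of the 4 genes in the 72 barcodes are a description. Blood came from animals that received nothing (the untreated library) or from animals with A.G.-ES embedded on both sides at ST36, an acupuncture point (the suture library, marked A.G.-ES in the plots). The series title describes weaned lambs and a suture that elutes astragaloside IV, a saponin of Astragalus root, with glycyrrhizic acid, a saponin of liquorice root. PBMCs were taken fresh from the interface of a HISTOPAQUE density gradient, washed, cleared of debris and dead cells where needed, and captured in droplets with a SeekOne DD kit that reads the 3′ end of transcripts. There is 1 library per group, and the number of animals behind each is not given in the labels, nor is the time from embedding to blood collection.

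Platelets are anucleate fragments shed by megakaryocytes. They carry RNA that they received from the megakaryocyte, stop bleeding, release stored chemokines and growth factors from granules, and attach to monocytes and lymphocytes. Platelets are small and poor in RNA. GNG11 encodes a G protein gamma subunit and MYL9 a regulatory light chain of myosin. TUBB1 encodes the beta-tubulin of the platelet's microtubule ring, and MPIG6B an inhibitory receptor of megakaryocytes and platelets.

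The untreated library held 8246 barcodes with 55861418 UMIs and the suture library 9638 barcodes with 44485442 UMIs, with medians of 5200 and 4165 UMIs per barcode. No barcode had fewer than 500 UMIs in either file. The libraries shared 61 barcode sequences, of which 0 were marker-positive. Transcripts of Y-linked genes summed to 44632 UMIs in the untreated and 850 UMIs in the suture library, and within marker-positive barcodes to 283 UMIs, found in 48 of 56, and 1 UMI, found in 1 of 16. The labels do not give the sex of the animals. With 1 library per group nothing below has a replicate check, and treatment, animals and preparation cannot be told apart. Intervals are exact, at 95%, and cover counting error only.

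Marker-positive barcodes made up 56 of 8246 untreated barcodes, or 0.679% (0.513 to 0.881), and 16 of 9638 suture barcodes, or 0.166% (0.0949 to 0.269). The share was lower in the suture library, and the intervals did not overlap. Barcodes with 1 or more marker UMIs below the threshold were more frequent than those above it. In the untreated library 258, 51 and 29 barcodes held 1, 2 and 3 marker UMIs, and in the suture library 151, 35 and 18 did. Just inside the threshold, 14 untreated and 2 suture barcodes held exactly 4. The highest sums were 21 and 23. Marker-positive barcodes held 46.6% of all marker UMIs of the untreated library and 32.6% of those of the suture library.

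GNG11 supplied the largest part of the sum. It had 191 UMIs in the untreated and 65 in the suture marker-positive barcodes, found in 53 of 56 and 15 of 16 of them. MYL9 had 120 and 43 UMIs, found in 45 and 14 barcodes. TUBB1 had 71 and 23 UMIs, found in 34 and 7 barcodes. MPIG6B had 8 and 2 UMIs, never more than 1 in a barcode. All other barcodes hold fewer than 4 of these UMIs by the rule, so a low level in each of them is fixed in advance. GNG11 was found in 2.48% of them in the untreated and 1.299% in the suture library, and MPIG6B in 0.134% and 0.0520%. Summed, they held more UMIs of the 4 genes than the marker-positive barcodes, 447 against 390 in the untreated and 275 against 133 in the suture library.

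The depth of most marker-positive barcodes was that of a leukocyte. Their median was 4965.5 UMIs and 1872.5 genes in the untreated library, beside 5202 UMIs and 1898 genes in all other barcodes. The suture medians were 4392 UMIs and 1503 genes, beside 4164 and 1514. Mitochondrially encoded genes supplied a median of 1.31% of UMIs in untreated and 2.21% in suture marker-positive barcodes, against 1.23% and 2.10% in the others. Ribosomal protein genes supplied 21.5% and 14.4%, against 25.9% and 24.1%.

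**Figure D1:**
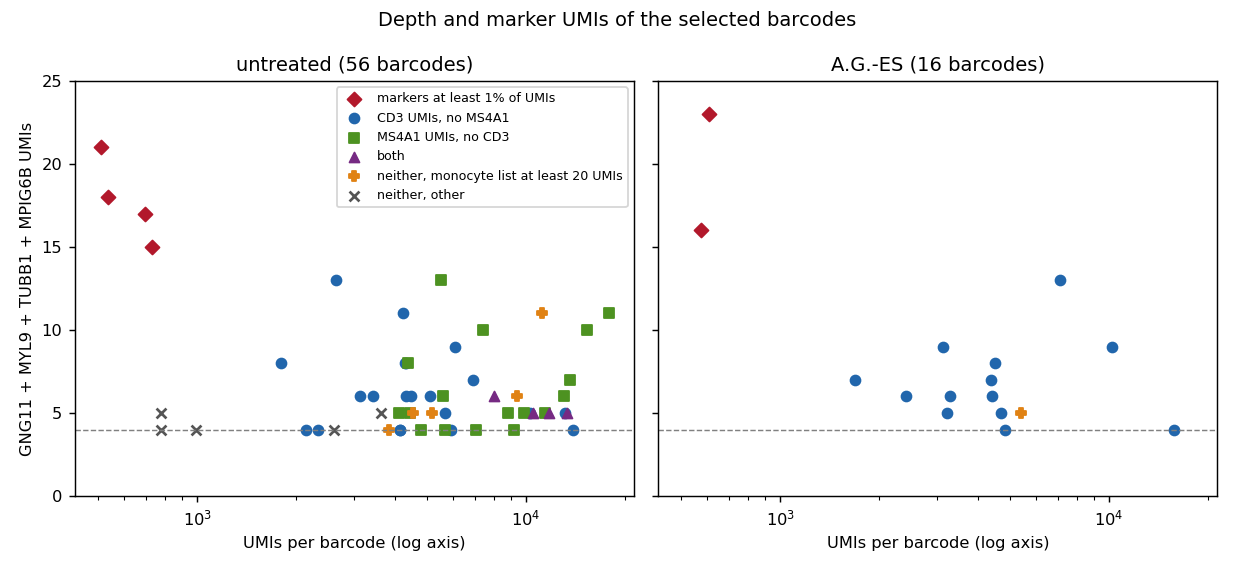
Each point is 1 marker-positive barcode, with its total UMIs on a log axis and the summed UMIs of GNG11, MYL9, TUBB1 and MPIG6B, and symbols give the T-cell, B-cell or monocyte transcripts it carried; the dashed line is the threshold of 4. The 4 untreated and 2 suture barcodes whose markers reach 1% of UMIs lie between 508 and 727 UMIs with 15 to 23 marker UMIs, and most of the others lie above 1000 UMIs.

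A set of 6 barcodes stood apart from the other 66, and the split at 1% of UMIs used to describe them was chosen after their values were seen. The 4 in the untreated library held 508 to 727 UMIs, 249 to 299 genes and 15 to 21 marker UMIs. The 2 in the suture library held 575 and 608 UMIs, 248 and 297 genes, and 16 and 23 marker UMIs. Their markers made up 2.06% to 4.13% and 2.78% to 3.78% of UMIs. The next marker-positive barcode was at 0.645% in the untreated and 0.415% in the suture library. Barcodes below 4 marker UMIs reached at most 0.283% and 0.444%. With at least 500 UMIs each, none of those could reach 1%, so their values do not bear on the split. A split by share also favours shallow barcodes, so the low depth of the set follows in part from it. These 6 marker-rich barcodes lie close to the lowest depth in the files, 501 and 500 UMIs, so how many similar barcodes fell below it was not analysed here.

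GNG11 had 5, 6, 8 and 9 UMIs in the 4 untreated and 6 and 9 in the 2 suture marker-rich barcodes, and TUBB1 had 2, 3, 3 and 9, and 4 and 10. LOC101104401, an unnamed gene described below, had 9, 27, 28 and 48 UMIs, and 16 and 21. LGALSL, a galectin-related gene, had 3, 8, 15 and 16, and 8 and 9. CALD1, the actin- and myosin-binding caldesmon, was at 0, 3, 8 and 12, and 3 and 3. All of these genes were found in each of the 6 barcodes, except that 1 untreated barcode held no CALD1.

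The marker-rich barcodes held no UMI of CD3D, CD3E, MS4A1, CD79B or PTPRC, the common leukocyte antigen, in either library. All genes of the lists of B-cell markers (12 genes), T-cell markers (11), CD4, CD8 and SOX13-high T-cell markers (8), cytotoxic and NK-cell markers (7), neutrophil markers (9) and cycling markers (7) were at 0 UMIs in them. The sets sum to only 2466 and 1183 UMIs, so the interval of a 0 reaches 1496 and 3118 UMIs per 1000000. On this scale PTPRC was at 1633 and 1825 in marker-positive barcodes with CD3D or CD3E but no MS4A1 UMIs. The neutrophil list was at 55.0 and 155 in all other barcodes, far below these limits. A 0 here thus cannot tell absence from a low level. Of the 15 measured monocyte and dendritic markers, CST3, which encodes cystatin C and is widely expressed, had 16 and 12 UMIs. The other 14 were at 0 in the untreated marker-rich barcodes, and 13 of 15 were at 0 in the suture ones, where SPI1 had 1 UMI. HBB, the beta-globin gene, had 1 UMI in each library's set. Ribosomal protein genes supplied a median of 3.38% of the UMIs of the untreated and 3.71% of those of the suture marker-rich barcodes, and mitochondrially encoded genes 1.24% and 0.251%. In the other barcodes under 1000 UMIs, 460 untreated and 482 suture, the median share of ribosomal protein genes was 13.9% and 4.05% and that of mitochondrially encoded genes 1.89% and 7.45%. LOC121818276, a pseudogene chosen after its values were seen, was at 199658 and 257897 CPM (UMIs per 1000000 UMIs of the barcodes summed) in these shallow barcodes. It was at 50284 and 23669 CPM in the marker-rich ones.

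Cytoskeletal transcripts were abundant in the marker-rich barcodes. The 33 measured genes of the platelet and megakaryocyte cytoskeleton list supplied 126115 CPM in the untreated and 125951 in the suture set, against 16550 and 17741 in all other barcodes. TMSB10, an actin-sequestering thymosin, had 171 UMIs in the untreated set, with 23, 44, 49 and 55 in its barcodes, and 85 in the suture set, with 42 and 43. Its paralog TMSB4X had 1 UMI in each set, equal to 406 and 845 CPM, although it reached 4541 and 6088 CPM in all other barcodes. ACTB had 58 and 30 UMIs, or 23520 and 25359 CPM against 2335 and 2102 in the others. PFN1, the actin-binding profilin, had 3 and 0 UMIs. The list was thus carried by a few genes, and 16 and 20 of its 33 were at 0.

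Several regulators and enzymes known from platelets were also found in the marker-rich barcodes. Most genes of the platelet lists beyond the cytoskeleton were at 0 UMIs there. In the untreated and suture sets these were 23 and 27 of 34 measured signalling genes and 22 and 22 of 27 surface receptors. They were also 17 and 19 of 21 granule cargo genes, and 27 and 30 of 35 other platelet-enriched transcripts. RGS10 and RGS18, which shorten G protein signals, had 11 UMIs each in the untreated set, with 2, 2, 2 and 5 UMIs in the 4 barcodes for either gene. Each of the 2 suture barcodes had 4 RGS10 and 2 RGS18 UMIs. KIF2A, a microtubule-depolymerising kinesin, had 9 and 11 UMIs, and FHL1, a LIM-domain protein, 6 and 9. PDE3A, the cyclic nucleotide phosphodiesterase inhibited by the antiplatelet drug cilostazol, had 6 and 1. SLC40A1, the iron exporter ferroportin, picked like SELENBP1 after its values were seen, had 1, 2, 3 and 3 UMIs in the untreated and 2 and 5 in the suture barcodes. SELENBP1, a selenium-binding protein gene, had 4, 5, 6 and 9 UMIs in the untreated but 0 and 2 in the suture barcodes. LGALS3, which encodes galectin-3, had 25 and 13 UMIs, or 10138 and 10989 CPM, against 11.8 and 47.9 in all other barcodes.

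A group of 3 genes without a gene symbol followed the markers and were singled out after their values were seen, since the rule for named genes took gene symbols only. LOC101104401 lies between PPBP, a platelet chemokine gene, and CXCL1 in the RefSeq annotation of ARS-UI_Ramb_v3.0. It had 482 UMIs in the untreated and 155 in the suture marker-positive barcodes, found in 54 of 56 and 14 of 16. That is 1377 and 2035 CPM, against 13.2 and 9.16 in all other barcodes. LOC101113516, which lies near WFDC2, had 241 and 155 UMIs, or 689 and 2035 CPM, against 4.83 and 7.39. LOC105612995, between CREG1 and RCSD1, had 21 and 15 UMIs, of which the marker-rich barcodes held 6 and 13. These levels were higher than those of GNG11 itself for LOC101104401 in both libraries, on a per-molecule scale in which gene length plays no part because only 3′ ends are counted.

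PPBP itself had 7 UMIs in 7 untreated marker-positive barcodes and 10 UMIs in the other 8190, a ratio of 111 (35.9 to 323). It had 0 UMIs in suture marker-positive barcodes and 10 in the others. PF4, the neighbouring platelet chemokine of other mammals, was not analysed here.

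The classical platelet surface receptors were scarce. Of 27 measured genes of this list, 11 in the untreated and 16 in the suture library had no UMI in marker-positive barcodes, and only 2 and 3 passed the minimum of 50 CPM (the mean of marker-positive and other barcodes) used to compare genes. ITGA2B, the alpha subunit of the fibrinogen receptor, had 2 and 0 UMIs, and its untreated ratio of 2.25 had an interval of 0.270 to 8.28. ITGB3, its beta partner, had 1 and 1. GP9, a subunit of the von Willebrand factor receptor, had 1 and 0, and GP1BA, another subunit, had no UMI in either library. GP1BB, a further subunit, had 4 UMIs in marker-positive barcodes and 2 in all others of the untreated library, and 2 and 1 in the suture library. TREML1, a receptor stored in alpha granules, had 5 against 17 UMIs in the untreated library, a ratio of 46.7 (13.5 to 132), and 1 against 15 in the suture library. P2RY1, an ADP receptor, had 5 against 31 UMIs, a ratio of 25.6 (7.77 to 66.4), and 1 against 85. Among the receptors, GP1BB, TREML1 and P2RY1 thus had sparse counts that lay toward these barcodes in the untreated library, while ITGA2B, ITGB3 and GP9, at 0 to 2 UMIs, were too few to tell. ITGA6 was the only receptor called higher, in the suture library alone, at 2.45-fold (1.27 to 4.29) from 12 UMIs.

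Levels of genes outside the choice followed the number of marker UMIs. LOC101104401 was at 5.93 CPM in the 7852 untreated barcodes with no marker UMI, 97.2 with 1, 347 with 2, 532 with 3, 1027 with 4 to 9 and 2866 with 10 to 29. The suture values were 4.97, 59.8, 352, 697, 1296 and 8090. The group with 10 to 29 holds all 4 untreated and 2 suture marker-rich barcodes, which raise its level for the genes abundant in them. In marker-positive barcodes without the marker-rich ones, LOC101104401 was at 1065 and 1574 CPM. It was found in 89.7% of untreated and 88.9% of suture barcodes at 3 marker UMIs, just outside the threshold, and in 95.6% and 84.6% of those with 4 to 9. CALD1 went from 1.74 to 5.82, 60.9, 166, 148 and 570 CPM in the untreated library. SELENBP1 went from 0.606 to 5.82, 54.8, 53.2, 152 and 630. ITGA6, an integrin subunit also expressed by lymphocytes, stayed between 41.2 and 63.5 CPM in the untreated library with no order. In the suture library it was at 64.6, 56.4, 25.5, 49.1, 177 and, in the 3 barcodes with 10 to 29 marker UMIs, 0. The threshold of 4 thus lies within a graded range and not in a gap.

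**Figure D2:**
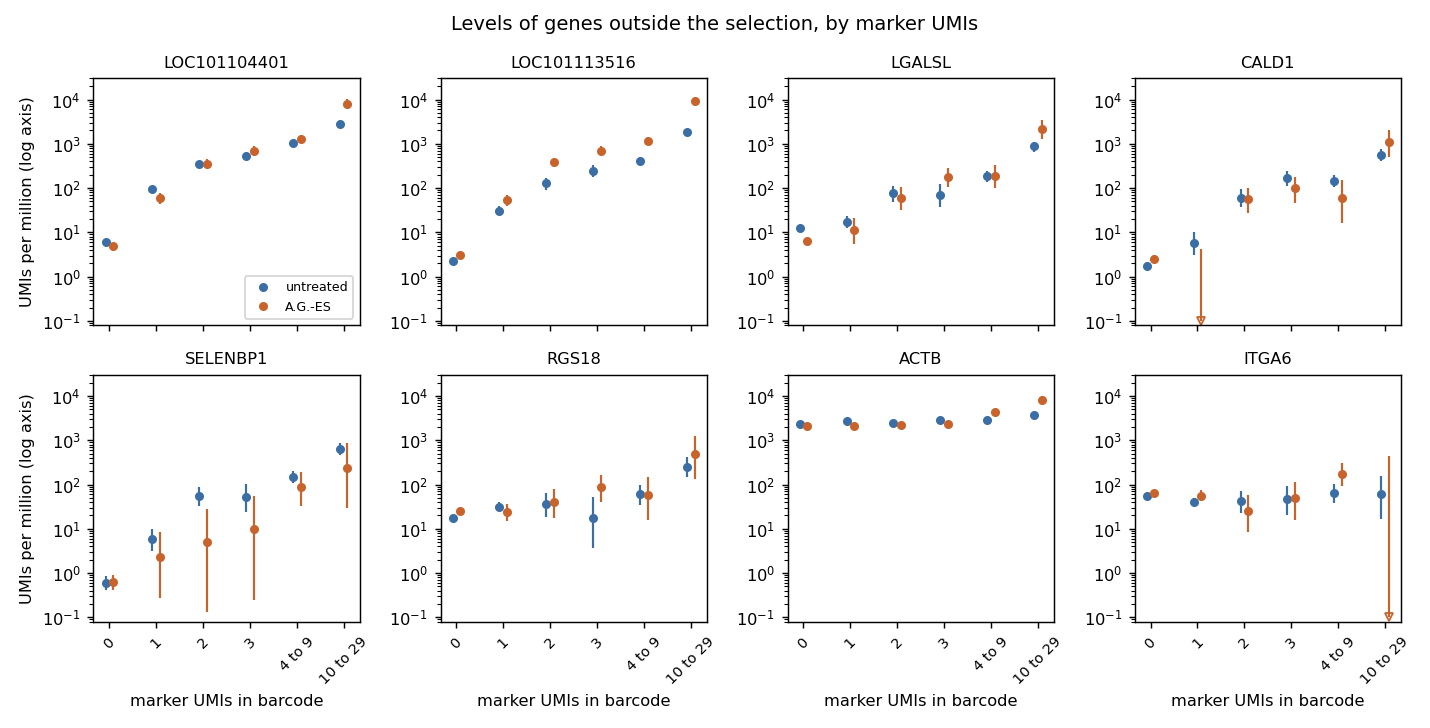
CPM of 8 genes that did not enter the choice (log axes), in barcodes grouped by their summed marker UMIs, for the untreated and suture libraries, with exact 95% counting intervals; open triangles stand for 0 UMIs. LOC101104401 climbs from 5.93 to 2866 in the untreated and from 4.97 to 8090 in the suture library, while ITGA6 shows no such order in the untreated library. The last group holds 11 and 3 barcodes, among them the 4 untreated and 2 suture marker-rich ones.

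Most marker-positive barcodes also carried lymphocyte transcripts. T cells were read from CD3D and CD3E, subunits of the T-cell receptor complex (CD3G was not analysed here), and B cells from MS4A1, which encodes CD20. In the untreated library 25 of 56 marker-positive barcodes had a CD3 UMI, or 44.6% (31.3 to 58.5), and 21 of 56 had an MS4A1 UMI, or 37.5% (24.9 to 51.4). Both were present in 4 and neither in 14. Of the suture barcodes 13 of 16 had a CD3 UMI, or 81.25% (54.3 to 96.0), and 0 of 16 had an MS4A1 UMI, for which 3 counts would be 18.75% and the exact interval reaches 20.6%.

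The shares were set beside those of all other barcodes of the same library. CD3 was found in 49.9% (48.8 to 51.0) of the untreated and 70.9% (70.0 to 71.8) of the suture others, and MS4A1 in 45.4% and 20.4%. The intervals of each marker in the marker-positive barcodes held these values, for MS4A1 in the suture library only just. Barcodes with neither marker were more frequent among untreated marker-positive barcodes, at 25% (14.4 to 38.4) against 11.97% of the others, and this interval did not hold the value of the others. The suture shares with neither were 18.75% (4.05 to 45.6) and 14.4%. As a background, CD3 was found in 13.7% of 2302 untreated barcodes with at least 5 MS4A1 UMIs (median depth 10500.5 UMIs) and in 24.6% of 690 suture ones (7091.5 UMIs). MS4A1 was found in 8.39% of 2719 untreated barcodes with at least 5 CD3 UMIs (4503 UMIs) and in 4.22% of 4239 suture ones (4695 UMIs). The CD3 and MS4A1 shares of the marker-positive barcodes lay above these, apart from MS4A1 in the suture library.

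With each barcode thinned to 500 UMIs, which left out none, CD3 was found in 20 of 56 untreated marker-positive barcodes, 35.7% (23.4 to 49.6), against 25.8% of others. MS4A1 was found in 8 of 56, 14.3% (6.38 to 26.2), against 14.6%. Suture CD3 was found in 5 of 16, 31.2% (11.02 to 58.7), against 37.0%, and MS4A1 in 0 of 16 against 6.33%. Neither marker was found in 51.8% (38.0 to 65.3) against 59.9% in the untreated and in 68.75% (41.3 to 89.0) against 57.0% in the suture library. Every interval held the value of the other barcodes after thinning. After thinning, the background was 1.48% and 4.49% for CD3 in barcodes with at least 5 MS4A1 UMIs. For MS4A1 in barcodes with at least 5 CD3 UMIs it was 1.47% and 0.566%.

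**Figure D3:**
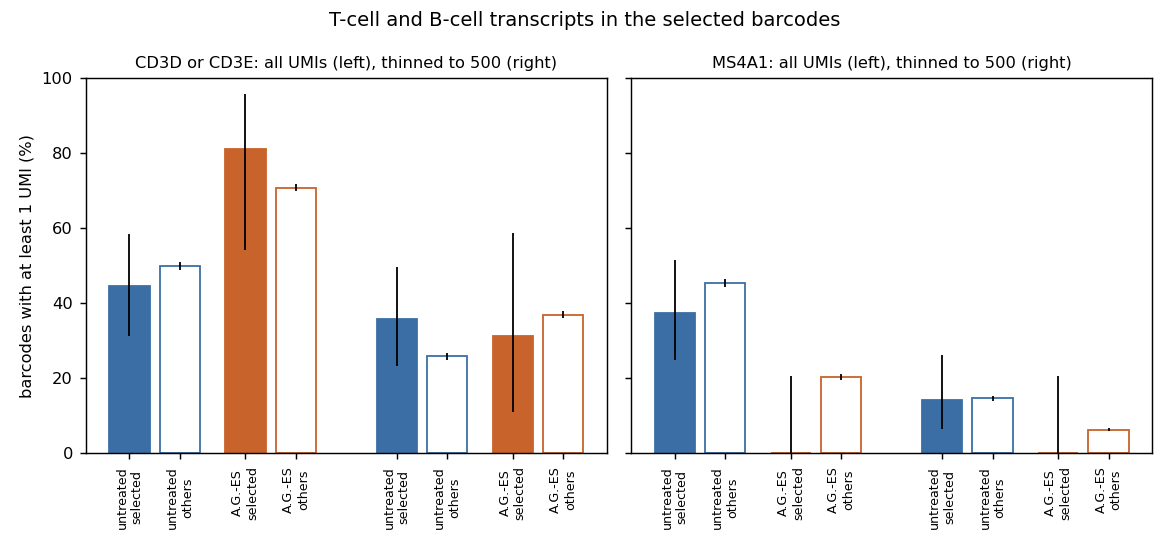
Percent of barcodes with at least 1 UMI of CD3D or CD3E (left panel) and of MS4A1 (right panel) in marker-positive ("selected", filled bars) and all other barcodes (open bars) of each library, before and after thinning to 500 UMIs, with exact 95% binomial intervals. CD3 was found in 44.6% of untreated and 81.25% of suture marker-positive barcodes, and the MS4A1 bar of the suture marker-positive barcodes is at 0.

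The transcripts sorted the untreated marker-positive barcodes into 4 marker-rich ones, 21 with CD3 only, 17 with MS4A1 only, 4 with both, 5 with neither but at least 20 UMIs of the monocyte and dendritic list, and 5 others. The limit of 20 was chosen after the values were seen. Suture barcodes comprised 2 marker-rich barcodes, 13 with CD3 only and 1 with the monocyte list. The barcodes with CD3 only had a median of 4321 UMIs and 6 marker UMIs in the untreated library, and 4407 UMIs and 6 marker UMIs in the suture library. Those with MS4A1 only had 7396 UMIs and 5 marker UMIs, with up to 19 MS4A1 UMIs in a barcode. The 4 with both were deep, at 7996 to 13313 UMIs. The 5 others held 775 to 3637 UMIs, at most 5 marker UMIs, and no CALD1 or F13A1 UMI. They held 33 UMIs of LOC101104401, or 1.5 per marker UMI.

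Marker-positive barcodes were found among every kind of leukocyte examined in the untreated library. They made up 16 of 2491 barcodes with at least 5 CD3 and no MS4A1 UMIs, or 0.642% (0.368 to 1.04), and 12 of 1986 with at least 5 MS4A1 and no CD3 UMIs, or 0.604% (0.313 to 1.05). Among 133 barcodes with at least 20 monocyte list UMIs and neither lymphocyte marker they made up 5, or 3.76% (1.23 to 8.56). This share was above both lymphocyte shares, and its interval did not overlap theirs. The intervals do not cover the choice of the limit of 20, made after the values were seen. Median depths also differed, at 4405, 10300.5 and 5311 UMIs for the CD3, MS4A1 and monocyte list barcodes. The suture shares were 8 of 4060, or 0.197% (0.0851 to 0.388), 0 of 520, for which 3 counts would be 0.577% and the exact interval reaches 0.707%, and 1 of 247, or 0.405% (0.0102 to 2.23). The higher monocyte share was therefore seen in 1 library and rests on 5 barcodes. Whether a marker-positive barcode with leukocyte transcripts held a platelet attached to a cell, a platelet captured beside it, or free platelet RNA cannot be told apart from these counts. Removing the 544 untreated and 743 suture barcodes with the highest doublet scores (0.8% per 1000 barcodes, scored with Scrublet) took out 6.60% and 7.71% of all barcodes. It removed 1 and 0 of the marker-positive ones, or 1.79% and 0%. Whether this score can mark a platelet captured with a leukocyte was not tested.

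The proportion of other platelet-associated transcripts to marker UMIs was described for each kind of barcode. The marker sum chose the barcodes and, as a share, the marker-rich set, so the choice enters these ratios and no difference is read from them. LOC101104401 had 1.58 UMIs per marker UMI (1.16 to 2.15) in the untreated marker-rich barcodes, 1.08 (0.849 to 1.38) in those with CD3 only, 1.22 (0.946 to 1.58) in those with MS4A1 only and 0.935 (0.544 to 1.60) in those with the monocyte list. Its suture values were 0.949 (0.588 to 1.53) in the marker-rich and 1.24 (0.926 to 1.65) in the CD3-only barcodes. All these intervals overlapped. LOC101113516 had 1.04 (0.742 to 1.46) per marker UMI in the untreated marker-rich barcodes and 0.534 (0.394 to 0.717) and 0.527 (0.378 to 0.728) in those with CD3 or MS4A1 only. In the suture library it had 1.41 (0.919 to 2.18) and, with CD3 only, 1.01 (0.746 to 1.37). LGALSL had 0.592 (0.394 to 0.878) in the untreated marker-rich barcodes, against 0.248 (0.164 to 0.366) and 0.188 (0.112 to 0.301), and 0.436 (0.231 to 0.789) and 0.157 (0.0827 to 0.278) in the suture sets, where the intervals overlapped.

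F13A1 encodes the A subunit of coagulation factor XIII, which both platelets and monocytes make, and had 0.169 UMIs per marker UMI in the untreated marker-rich barcodes, 0.113 with CD3 only and 0.152 with MS4A1 only. In the 5 monocyte-list barcodes it had 1.52 (0.943 to 2.47), from 47 UMIs. Its level there, 1378 CPM, was close to that of untreated barcodes outside the choice with as many monocyte list UMIs. Those 128 barcodes, with no CD3 or MS4A1 UMI, were at 1356 CPM (1275 to 1442).

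**Figure D4:**
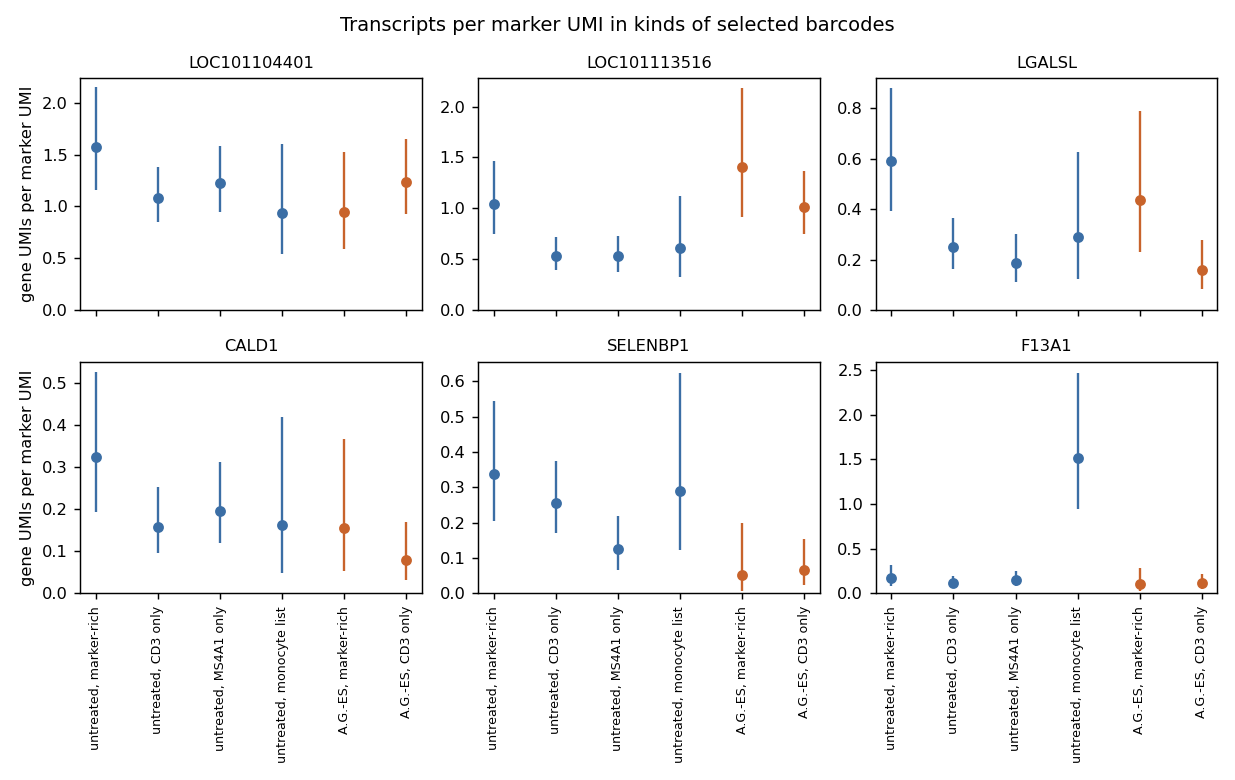
UMIs of 6 genes per summed UMI of GNG11, MYL9, TUBB1 and MPIG6B in 4 kinds of untreated and 2 kinds of suture marker-positive barcodes, with exact 95% counting intervals. LOC101104401 lies between 0.935 and 1.58 in all 6 sets. F13A1 is at 1.52 in the untreated monocyte-list barcodes and at most 0.169 in the others. Its 1378 CPM in those monocyte-list barcodes was close to the 1356 CPM of untreated barcodes outside the choice past the same limit.

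All marker-positive barcodes of a library were then summed and set against the sum of all its other barcodes, gene by gene. Of 3163 genes past the minimum in the untreated library, 82 (2.59%) reached a ratio of 2 or more and 13 (0.411%) a ratio of 0.5 or less, and are called higher and lower below. Of 2994 genes in the suture library, 304 (10.2%) were higher and 186 (6.21%) lower. The suture sum rests on 76173 UMIs against 349909 in the untreated library, and in simulated counts of that size 7.49% of 2817 unchanged genes passed 2-fold, against 0.0344% of 2910 at the untreated size. The simulated counts held counting error only, with no differences between barcodes. These shares therefore do not say how many of the called genes are unchanged. The split depended on scaling. With trimmed-mean (TMM) factors it was 64 higher and 27 lower in the untreated and 139 higher and 362 lower in the suture library, as the median log2 ratio of all genes moved from 0.02 to -0.08 and from 0.14 to -0.18. With median-of-ratios factors it was 179 higher and 314 lower in the suture library. The ratios named below are those without such factors.

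The genes with the highest ratios in both libraries were SRXN1, CALD1 and LGALSL. SRXN1, which encodes sulfiredoxin, an enzyme that restores oxidised peroxiredoxins, had 50 UMIs in untreated marker-positive barcodes and was 62.5-fold higher than in the others (44.1 to 87.3). With 24 UMIs it was 86.9-fold higher (54.1 to 134) in the suture library. CALD1 was 82.95-fold (62.5 to 109) and 57.4-fold (29.8 to 102) higher, and LGALSL 23.9-fold (19.4 to 29.2) and 57.6-fold (38.4 to 83.4). These genes were present beyond the marker-rich barcodes, with CALD1 found in 27 of 56 and LGALSL in 33 of 56 untreated marker-positive barcodes. In the suture library CALD1 was found in only 4 of 16, and LGALSL in 12. SRXN1 was found in 20 of 56 and 8 of 16. The marker-rich barcodes held 15 of 50 SRXN1, 23 of 80 CALD1 and 42 of 111 LGALSL UMIs in the untreated library. In the suture library they held 14 of 24, 6 of 13 and 17 of 31. Without them the suture levels were 133, 93.3 and 187 CPM, against 3.63, 2.97 and 7.07 in all other barcodes.

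A further group of the highest ratios consisted of genes of monocytes. S100A8 and S100A9, the calprotectin subunits, were 9.75-fold and 8.13-fold higher in the untreated library and 6.84-fold and 6.49-fold in the suture library. Yet S100A8 was found in 4 of 56 and 1 of 16 marker-positive barcodes. THBS1, the adhesive granule protein thrombospondin-1, was 4.76-fold and 5.38-fold higher and was found in 6 and 1 barcodes, none of them marker-rich. TYROBP and FCER1G, adaptors of activating receptors, were 6.64-fold and 3.77-fold higher in the untreated library and 3.57-fold and 4.64-fold in the suture library, and the chemokine CXCL8 was 4.38-fold and 2.90-fold higher. THBS1, S100A8, S100A9, TYROBP and CXCL8 lay almost wholly in the barcodes with at least 20 monocyte list UMIs. The 51 untreated marker-positive barcodes below that limit, which was chosen after seeing the data and which counts S100A8, S100A9 and TYROBP itself, held 0 UMIs of S100A8 and S100A9, 4 of THBS1, 2 of TYROBP and 7 of CXCL8. The 15 suture ones held 1 of CXCL8 and 0 of the other 4 genes. Where the same limit was set on the other barcodes, THBS1 was at 12.7 against 4.53 CPM in the untreated library, a ratio of 2.79 (0.755 to 7.24), and TYROBP at a ratio of 0.752 (0.0908 to 2.73). FCER1G had 14 UMIs below the limit in the suture library and was 8.19-fold higher (4.46 to 13.8) than in the others below it. F13A1 was 44.4-fold (32.1 to 60.5) and 48.5-fold (26.0 to 83.6) higher there, and CALD1 89.9-fold (67.0 to 120) and 114-fold (57.9 to 209).

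The rest of the 25 highest genes by the rule for named genes were of mixed kinds. Cytoskeletal genes were among them, as were FTL, LGALS3 and CST3. RASGEF1B, ATF3, RNF10, IRF1, RNF149, PRDM1 and SLC37A3 were also among the 25, and they were not grouped under a theme. DYNLT1, a dynein light chain, was 3.86-fold (3.17 to 4.67) and 3.52-fold (2.42 to 4.95) higher, and was found in 44 of 56 and 14 of 16 barcodes. COTL1, an actin-binding protein, was 2.41-fold and 2.83-fold higher. ZYX, which encodes the focal adhesion protein zyxin, was 2.23-fold and 2.17-fold higher. BRK1, a subunit of the WAVE actin regulator, was 2.85-fold and 5.47-fold higher, and MAPRE2, a microtubule plus-end protein, 2.19-fold and 3.29-fold. FTL, the ferritin light chain, was 3.52-fold (2.66 to 4.58) and 5.75-fold (4.36 to 7.44) higher, with 11 of its 57 and 23 of its 58 UMIs in marker-rich barcodes. LGALS3 was 14.7-fold and 6.58-fold higher, with 25 of 61 and 13 of 24 UMIs there. CST3 was 4.29-fold and 2.04-fold higher, but without the marker-rich barcodes its log2 ratio in the suture library was -0.17.

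**Figure D5:**
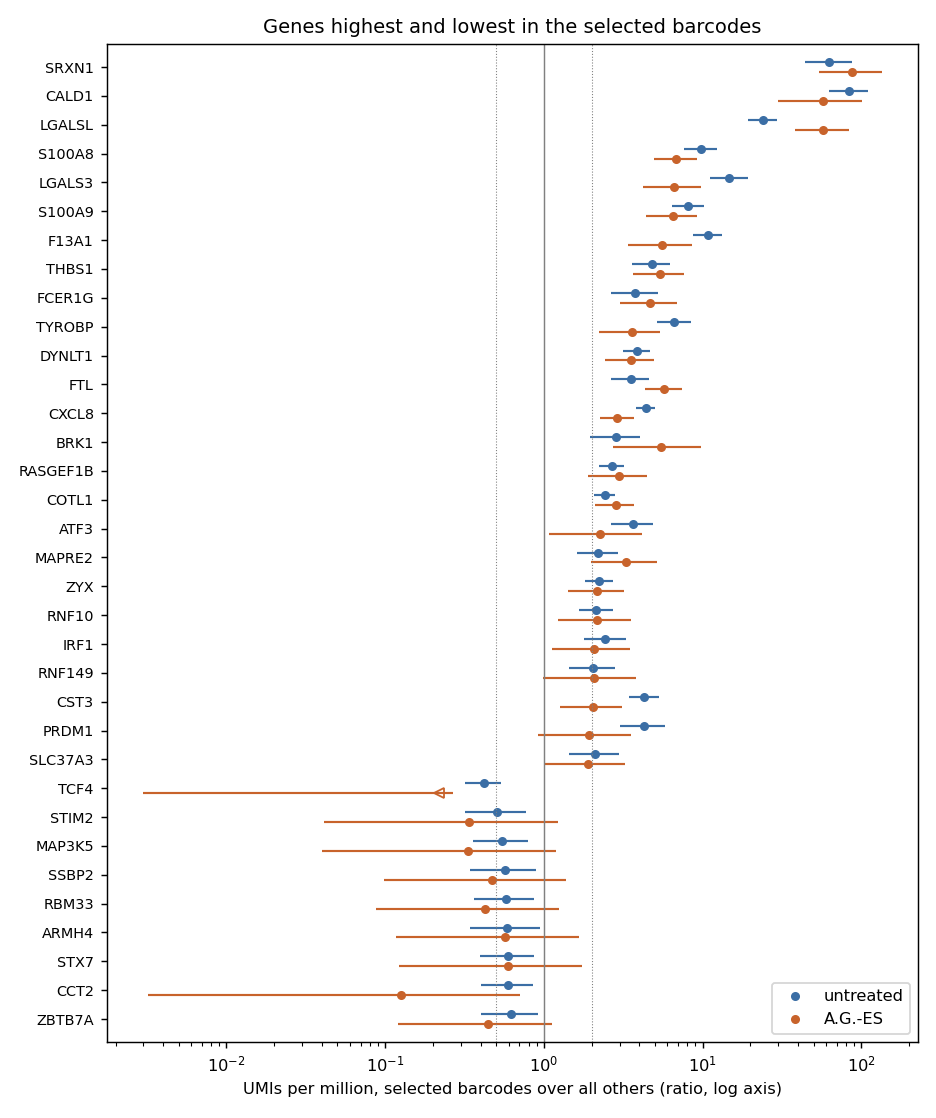
Ratio of CPM in marker-positive barcodes over all others (log axis), with exact 95% counting intervals. Shown are the 25 highest and 9 of the 10 lowest genes in both libraries by the rule for named genes, which takes gene symbols only. Dotted lines mark 2-fold, and the open triangle stands for a gene with 0 UMIs whose ratio is taken against 3 counts. SRXN1, CALD1 and LGALSL exceed 20-fold in both libraries, and 7 of the 9 intervals of the lowest genes in the suture library reach past 1.

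The lowest ratios were smaller in size. TCF4, a transcription factor of B and dendritic cells, had 60 UMIs in untreated marker-positive barcodes, a ratio of 0.418 (0.319 to 0.538), and 0 UMIs in the suture ones, a ratio of at most 0.218 against a floor of 3 counts over the library's marker-positive barcodes. CCT2, a chaperonin subunit, was at 0.597 in the untreated library and, from 1 UMI, at 0.126 (0.0032 to 0.705) in the suture library. The calcium sensor STIM2 was at 0.507 and, from 2 UMIs, at 0.338 (0.0410 to 1.22). Of the 9 lowest genes shown only TCF4 passed 2-fold in the untreated library.

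Lists of platelet genes were described by their counts beside those of all genes. Of the 24 listed granule cargo genes, 21 were in the files and 6 past the minimum in the untreated library, of which F13A1 and THBS1 were higher. In the suture library 7 passed, and F13A1, THBS1 and TIMP1, a metalloproteinase inhibitor, were higher. Over all genes 2.59% were higher in the untreated and 10.2% in the suture library. THBS1 had 53 UMIs in the 5 untreated monocyte-list barcodes and 4 in the other 51, and F13A1 had 47 and 52. In the suture library THBS1 had 31 UMIs in the 1 monocyte-list barcode and 0 in the other 15, and F13A1 had 6 and 14. The list's median log2 ratio was 0.70 and 0.52, beside 0.02 and 0.14 over all genes. Of 33 measured cytoskeleton genes 21 passed in each library. CALD1, VCL (vinculin) and ZYX were higher in the untreated library, and ACTB, CALD1, TAGLN2, VASP, VCL and ZYX in the suture library, with list medians of 0.35 and 0.73. No gene of this list was at least 2-fold lower.

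Of 34 measured signalling genes, 17 passed in the untreated library. PLEK (pleckstrin, a main substrate of protein kinase C in platelets) and RGS18 were higher, at 3.64-fold and 5.42-fold. In the suture library 20 passed, with PRKCQ, PRKG1, RGS10 and RGS18 higher and ITPR1, LYN and SYK lower, and PLEK was at 0.935. The list medians were 0.08 and 0.05, beside 0.02 and 0.14 over all genes. Of all genes 2.59% were higher and 0.411% lower in the untreated library, and 10.2% and 6.21% in the suture library. Of granule formation genes, STX11, a syntaxin of granule release, was higher in the untreated and RAB27B in the suture library, among 4 and 3 past the minimum. No megakaryocyte transcription factor was higher among the 5 and 4 that passed, and MEF2C, which B cells and monocytes also express, was lower in the suture library with 0 UMIs. Among other platelet-enriched transcripts TSC22D1 was higher in the untreated and FHL1 in the suture library, of 5 past the minimum in each.

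Platelet genes below the minimum had high ratios from few UMIs. NRGN, which encodes neurogranin, had 26 UMIs in untreated and 3 in suture marker-positive barcodes, with ratios of 58.9 (36.0 to 93.6) and 109 (20.4 to 382). TRIM58, a ubiquitin ligase of the erythroid and megakaryocyte lineages, had 10 and 4 UMIs against 7 and 6 in all other barcodes. SH3BGRL2 had 11 UMIs, a ratio of 29.6 (14.0 to 56.8), in the untreated library and 1 UMI in the other. GATA1, the master regulator of megakaryocyte and erythroid genes, had 3 UMIs against 4 in the untreated library and 0 against 4 in the suture library.

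Lists of other cell types were read in the same way. Beside them, 2.59% of all genes were higher and 0.411% lower in the untreated library, and 10.2% and 6.21% in the suture library. Monocyte and dendritic markers were higher for 6 of 7 genes past the minimum in the untreated and 7 of 8 in the suture library, with median log2 ratios of 2.10 and 2.02. Their summed level was 1518 and 2442 CPM in marker-positive barcodes, against 327 and 720 in the others. The 5 untreated and 1 suture barcodes with at least 20 such UMIs held 439 of 531 and 149 of 186 of them. B-cell markers showed no call among 8 genes in the untreated library, and 5 of 5 were lower in the suture library, where 10 of 12 were at 0 UMIs in marker-positive barcodes. T-cell markers were higher for 1 of 6 (CD28) and 1 of 11 genes (LCK), and CD5 was lower in the suture library. Erythroid markers had 3 UMIs in the marker-positive barcodes of each library. Basophil and mast-cell markers had 1 and 0, and endothelial markers 16 and 5. Of neutrophil markers 2 of 2 and 3 of 3 were higher, among them S100A8 and S100A9. Cytotoxic markers held GNLY as lower, 1 of 1, in the untreated library and no call among 5 in the suture library. CD4, CD8 and SOX13-high markers had no call among 5 and then CD8B higher and RHEX lower among 5, cycling markers 1 of 3 (CENPF) and 1 of 1 (PCNA) higher, and nuclear transcripts none of 7 in either library.

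Marker-positive barcodes were also compared between libraries. Of 3166 genes past the minimum, 388 (12.3%) were higher and 440 (13.9%) lower by 2-fold or more in suture barcodes, and the split was 275 higher and 531 lower with TMM factors, which moved the median log2 ratio from -0.00016 to -0.17. With median-of-ratios factors the median was -0.13. The highest were cytotoxic genes. GNLY, which encodes granulysin, had 3 UMIs in untreated and 71 in suture marker-positive barcodes, a ratio of 109 (35.7 to 540), and CCL5, a chemokine of T cells and platelets, had 0 and 62, at least 94.9-fold higher. In all other barcodes the same genes were 4.51-fold and 8.42-fold higher. The CCL5 UMIs lay in 4 and the GNLY UMIs in 5 of 16 barcodes, none of them marker-rich. COX3, a mitochondrially encoded subunit of cytochrome c oxidase, was 16.3-fold higher in marker-positive and 12.03-fold higher in other barcodes.

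The lowest between libraries were B-cell genes. BANK1, a B-cell adaptor, had 457 and 3 UMIs, a ratio of 0.0302 (0.00620 to 0.0887), against 0.283 in all other barcodes, and RALGPS2 had 234 and 1, a ratio of 0.0196 (0.000495 to 0.110) against 0.413. EBF1, the B-lineage transcription factor, had 335 and 0 UMIs, a ratio of at most 0.0411 against a floor of 3 counts, and 0.229 in the others. SYK and LYN, listed as platelet signalling genes and also expressed by B cells, were at 0.0497 (0.00597 to 0.182, from 2 UMIs in the suture library) and 0.148. B-cell markers were lower for 7 of 7 genes past the minimum, in a library whose marker-positive barcodes held no MS4A1 UMI.

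Genes found in the marker-rich barcodes lay on both sides of 1 between libraries. LOC101104401 was at a ratio of 1.48, CALD1 at 0.746, LGALSL at 1.28, F13A1 at 0.928, ZYX at 1.23 and RGS18 at 1.08. LOC101113516 was at 2.95, SRXN1 at 2.20, FHL1 at 2.99 and LOC105612995 at 3.28. Of their suture UMIs the 2 marker-rich barcodes held 55 of 155, 14 of 24, 9 of 13 and 13 of 15. Without the marker-rich barcodes of both libraries LOC105612995 turned to a log2 ratio of -0.69, from 2 suture and 15 untreated UMIs. SELENBP1 was at 243 and 105 CPM in the untreated and suture marker-positive barcodes. Of 21 cytoskeleton genes past the minimum 2 were higher (LIMS1 and TUBA4A) and none was lower, with a list median of 0.32 beside -0.00016 over all genes.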

How the data were processed

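Fresh blood mononuclear cells of 2 sheep libraries, 1 untreated and 1 A.G.-ES (suture), were captured with the SeekOne DD kit and sequenced on SURFSeq, per the labels' protocols. The files hold raw UMI counts per gene and barcode, as deposited by the authors, with no barcode under 500 UMIs. Which aligner and build made them is not given in the sources used here. The 26814 gene rows carry 26761 names, and the 53 names on more than 1 row were summed. The marker genes, gene lists and alternatives were chosen with earlier results of these data known. 

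UMIs were summed over marker-positive and over all other barcodes of a library, and ratios of CPM carry exact conditional binomial intervals. With 1 library per group no test was made. Genes whose CPM averaged at least 50 over the compared sums were compared at 2-fold, and a sum of 0 was set to 3 UMIs. Named genes were the 25 highest by the lower of both libraries' ratios (at least 10 UMIs in marker-positive barcodes of each), the 10 lowest by the higher ratio (1 is not reported here), the 8 highest and 8 lowest between libraries (at least 30 UMIs), and from each list those with the most UMIs or largest ratios; a gene chosen otherwise is said to be. Scrublet, run through scanpy 1.11.5, scored doublets, which were removed only as an alternative. TMM factors came from edgeR 4.0.16 in R 4.3.3, and all else from Python 3.11.15 with NumPy 2.4.6 and SciPy 1.17.1. On simulated counts with counting error only, 4-fold changes were recovered for 100% of 50 genes at the untreated and 98% at the suture depth.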

Additional observations from a re-analysis of the deposited data

How the results depend on the processing

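No paired analysis was possible because each group holds 1 library. Of 140 recomputed main values 74 stayed within their interval or within 1.5 times and 66 moved, and of 1570 single gene ratios 1132 stayed, 404 moved and 34 turned direction; apart from fewer barcodes or genes by construction, the cause was not tested. The share of marker-positive barcodes, untreated and then suture, was 1.65% and 0.716% at 2 marker UMIs, 1.03% and 0.353% at 3, 0.133% and 0.0311% at 10, 0.230% and 0.0830% without GNG11, 0.449% and 0.0934% without MYL9, 0.109% and 0.0311% at 0.4% of UMIs, and 1.06% and 0.436% with 1 marker UMI after thinning to 500 UMIs. The untreated share at 6 was 0.327%. At 10 marker UMIs CD3 was found in 18.2% and 33.3%, and the suture median was 608 UMIs. Thinned to 500 UMIs, MS4A1 was found in 14.3% of untreated (24.5% at 1000 UMIs) and CD3 in 31.25% of suture marker-positive barcodes.

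Counts of higher and lower genes moved most. In the untreated library they were 226 and 30 with every barcode given the same weight, 9 and 2 at a CPM minimum of 250, 1656 and 679 with none, 418 and 253 at 10 marker UMIs, 839 and 635 without CD3 or MS4A1 UMIs, 636 and 332 thinned to 500 UMIs, 247 and 113 at 1.5-fold, 43 and 20 with fewer than 20 monocyte list UMIs (42 higher with this limit on both sides), and 27 lower with TMM. For the suture library they were 139 and 362 with TMM, 179 and 314 with median of ratios, 23 and 10 at the minimum of 250, 1711 and 687 with none, 1484 and 97 thinned, and 745 and 418 at 1.5-fold, with 521 higher at the same weight, 1200 at 10 marker UMIs and 1364 without CD3 or MS4A1. Between libraries they were 50 and 42, 1573 and 1019, 1018 and 178, 851 and 146, 829 and 171, and 775 and 785 at the minimum of 250, with none, at 10 marker UMIs, without CD3 or MS4A1, thinned, and at 1.5-fold.

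The limit of fewer than 20 monocyte list UMIs was chosen after seeing the data. Set on marker-positive barcodes alone, it removes UMIs from 1 side only, which lowers these ratios by construction. Untreated log2 ratios turned to -1.43 for THBS1, at most -1.28 for S100A8 and at most -1.55 for S100A9 (0 UMIs left, set to 3), -2.21 for TYROBP, -0.78 for FCER1G, -2.63 for CXCL8, -0.74 for RASGEF1B, -1.16 for ATF3 and -0.48 for RNF149. The suture ones turned to at most -0.84 for THBS1, -0.93 for S100A8, -0.57 for S100A9, -0.93 for TYROBP and -0.46 for ATF3, each with 0 UMIs left, and to -4.42 for CXCL8 (1 UMI) and -0.58 for RASGEF1B. With the limit on both sides, untreated TYROBP was at -0.41, RASGEF1B at -0.33, ATF3 at -0.65 and RNF149 at -0.22, and no suture ratio turned, those with 0 UMIs left giving none. At 10 marker UMIs untreated SLC37A3 was at -0.58, suture CXCL8 at -1.33, SSBP2 at 0.54 and RBM33 at 0.39, and S100A8 between libraries at most -1.38 (0 UMIs left); the first 4 rest on 1 or 2 UMIs. Without CD3 or MS4A1 UMIs untreated SLC37A3 was at -1.03. Thinned, untreated ATF3 was at -0.29 and RNF149 at -0.76, suture CD79A at 0.0559, and between libraries THBS1 was at -1, CD3D at -0.19 and CD3E at -0.36. With marker shares under 1%, also chosen after seeing the data, suture CST3 was at -0.17 and LOC105612995 between libraries at -0.69. The 16 suture barcodes limit all gene ratios there.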
